A study of Mus musculus with 15 samples.

Results

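The nuclear receptor genes were described in macrophages sorted from mouse gliomas. They comprised 32 genes matched by symbol in the count table, of 55486 genes listed there and of 49 genes in a list of the mouse family. The tumours were driven by the growth factor PDGFB in animals with an Ink4a/Arf knockout (genotype Ink4a/ArfKO, PDGFB), and this genotype was shared by all groups. Sorted cells were lipid-laden or non-lipid-laden and were either monocyte-derived macrophages (MDM), which enter the tumour from blood, or microglia, the resident macrophages of the brain. There were 3 libraries of lipid-laden MDM, 4 of non-lipid-laden MDM, 4 of lipid-laden microglia and 4 of non-lipid-laden microglia. Libraries are named by their group and by the number in their titles (224, 221, 431 or 718). No age, treatment or time was given in the sources used here, nor was the stain or gate that defined lipid load, and no tumour-free brain was among the libraries. The titles do not say that equal numbers mark one animal or that different numbers mark separate animals, so the p-values measure the spread between these libraries.

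Nuclear receptors are transcription factors, many of which are switched by a small lipid-soluble ligand such as a steroid, a vitamin, a thyroid hormone, an oxysterol or a fatty acid. Many of them bind DNA as a heterodimer with a retinoid X receptor (RXR) and exchange corepressors for coactivators when the ligand binds. In macrophages, liver X receptors (LXR) sense oxysterols and raise cholesterol efflux, peroxisome proliferator-activated receptors (PPAR) sense fatty acids, and the NR4A genes are induced within minutes of stimulation and act without a known requirement for a ligand.

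Total counts were 9306839 to 10699235 in lipid-laden MDM, 7798952 to 11419338 in non-lipid-laden MDM, 8962885 to 9797627 in lipid-laden microglia and 7842531 to 9658143 in non-lipid-laden microglia. The members took between 0.0874% and 0.472% of a library's counts. The summed level of 7 monocyte-derived markers (among them Ccr2, Itga4 and Ly6c2) was higher in both MDM groups than in both microglial groups. It ranged over 1570 to 2258 counts per 1000000 counts (CPM) in lipid-laden MDM and 3706 to 4237 CPM in non-lipid-laden MDM. In lipid-laden microglia it was 454 to 1051 CPM and in non-lipid-laden microglia 344 to 767 CPM. The 10 microglial markers (among them P2ry12, Tmem119 and Sall1) ranged over 5011 to 8848, 1726 to 3112, 4313 to 14240 and 7650 to 13292 CPM in the same order of groups, and no marker of either list was at 0 in a whole group. Lipid-laden MDM libraries therefore carried both sets of markers, and their microglial sums lay within the range of lipid-laden microglia. Between these lipid-laden groups 1 of the 10 microglial markers was called lower in MDM. Without lipid load all 10 were called lower in MDM. The 10 dendritic cell markers summed to 188 to 239 CPM in lipid-laden MDM, 1326 to 2896 CPM in non-lipid-laden MDM, 6.32 to 18.7 CPM in lipid-laden microglia and 21.7 to 39.9 CPM in non-lipid-laden microglia. Of that list, Cd209a, Clec9a and Dpp4 were at 0 in lipid-laden microglia. In these bulk libraries, fewer cells of a type and less RNA per cell cannot be told apart. Number 221 stood apart among lipid-laden libraries on the second principal component (11.1% of the variance), at -67.4 for MDM and -119 for microglia, while the other 13 lay between -29.2 and 61.7.

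A member was taken as expressed in a group when each library there had at least 1 CPM. By that rule 20 of the 32 members were expressed in lipid-laden MDM, 19 in non-lipid-laden MDM, 17 in lipid-laden microglia and 19 in non-lipid-laden microglia, and 14 were expressed in all 4 groups. Those 14 were Nr4a1, Nr4a2, Nr4a3, Nr1h2, Nr3c1, Rxra, Rxrb, Rara, Rora, Nr1d2, Nr2c1, Nr2c2, Ppard and Esrra. With a minimum of 5 CPM in each library, the counts of expressed members were 13, 15, 10 and 13 in the same order. Ppara, the fatty acid receptor of liver and heart, and Esr2, the second oestrogen receptor, had 0 counts in all 15 libraries. The thyroid hormone receptor gene Thrb had 0 counts in lipid-laden microglia, the mineralocorticoid receptor gene Nr3c2 had 0 in non-lipid-laden MDM, and Vdr had 0 in non-lipid-laden microglia. A summed count of 0 allows a level of up to 0.104 CPM over the lipid-laden MDM libraries and 0.0805 CPM over the non-lipid-laden MDM ones. The limit was 0.0778 CPM over the lipid-laden microglial libraries and 0.0845 CPM over the non-lipid-laden microglial ones. Each limit was taken as 3 counts over the group, for counting error only.

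**Figure D1:**
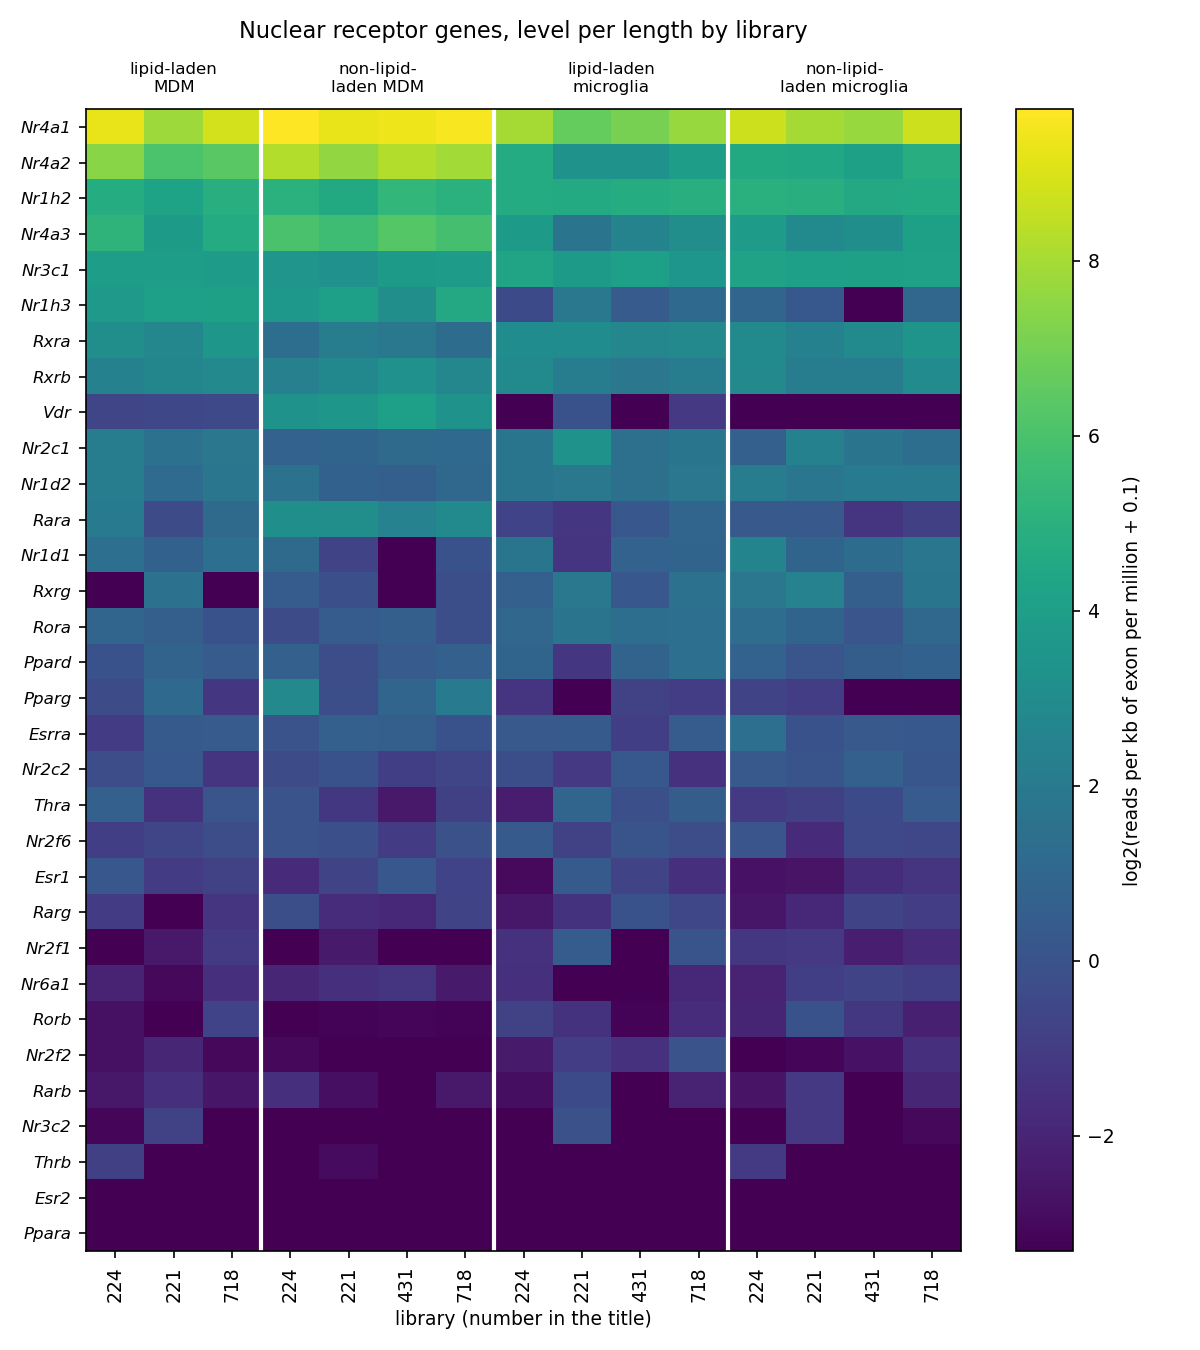
Levels of the 32 nuclear receptor genes in each of the 15 libraries, as log2 of counts per kilobase of exon and 1000000 counts (RPKM) plus 0.1, with genes ordered by their mean and libraries by group and title number. Nr4a1 was the brightest in each library, and Ppara and Esr2 were at 0 in all of them.

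Per kilobase of exon, Nr4a1 stood first among the members in all 4 groups, at a mean of 435 RPKM in lipid-laden MDM, 737 RPKM in non-lipid-laden MDM, 174 RPKM in lipid-laden microglia and 331 RPKM in non-lipid-laden microglia. The next places differed by origin. In both MDM groups Nr4a2 was second (106 RPKM in lipid-laden and 257 RPKM in non-lipid-laden MDM), and in both microglial groups Nr1h2 was second (27.0 RPKM in lipid-laden and 27.2 RPKM in non-lipid-laden microglia). There, Nr4a2 (15.6 ± 7.33 RPKM) and Nr3c1 (15.4 ± 3.61 RPKM, SD, n = 4) of the lipid-laden group were neighbours in this order and lay within each other's spread. Members ranked below 20th in a group averaged under 1 RPKM there. By mean CPM, Nr4a1 was the 21st most abundant of 14843 tested genes in non-lipid-laden MDM, against a rank of 87 in non-lipid-laden microglia.

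Of the 32 members, 29 passed the filter on low counts and were tested in a fit over all 14843 genes, and Ppara, Esr2 and Thrb were not tested. Between non-lipid-laden MDM and microglia, 11 of the 29 members were called at an edgeR adjusted p under 0.05, against 23.2% of all genes tested (10.7% higher and 12.5% lower). Vdr, Pparg, Nr1h3, Nr4a2, Rara, Nr4a3 and Nr4a1 were higher in MDM, and Rorb, Rxra, Nr1d2 and Nr3c1 were lower. Their median log2 fold change was -0.52 over the 29 members, against -0.12 over all genes, and it was the same with Vdr and Nr3c2 at the bounds given below. Between lipid-laden MDM and lipid-laden microglia, 3 members were called, all higher in MDM, against 2.78% of all genes (2.2% higher and 0.579% lower; medians of -0.04 and -0.03). These were Nr4a2, Nr1h3 and Nr4a3. With the title number as a block, since these groups were taken as paired, Nr4a1 was added, giving 4 members against 3.83% of all genes. Between lipid-laden and non-lipid-laden MDM, 3 members were called against 8.17% of all genes (5.21% higher and 2.96% lower; medians of 0.14 and 0.04), Rxra higher and Vdr and Nr4a2 lower in the lipid-laden cells. Between lipid-laden and non-lipid-laden microglia edgeR without the block called no member and 0% of all genes (medians of 0.20 and -0.02). There, 1367 genes had an unadjusted p under 0.05, Vdr and Nr4a1 among the members, and DESeq2 called Vdr. These groups were also taken as paired, and with the block edgeR called 0.802% of all genes, Nr4a1 being the 1 member among them. The lipid-laden effect differed between MDM and microglia for 1 member, Vdr, against 2.53% of all genes. These comparisons share groups, so they are not independent of each other.

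**Figure D2:**
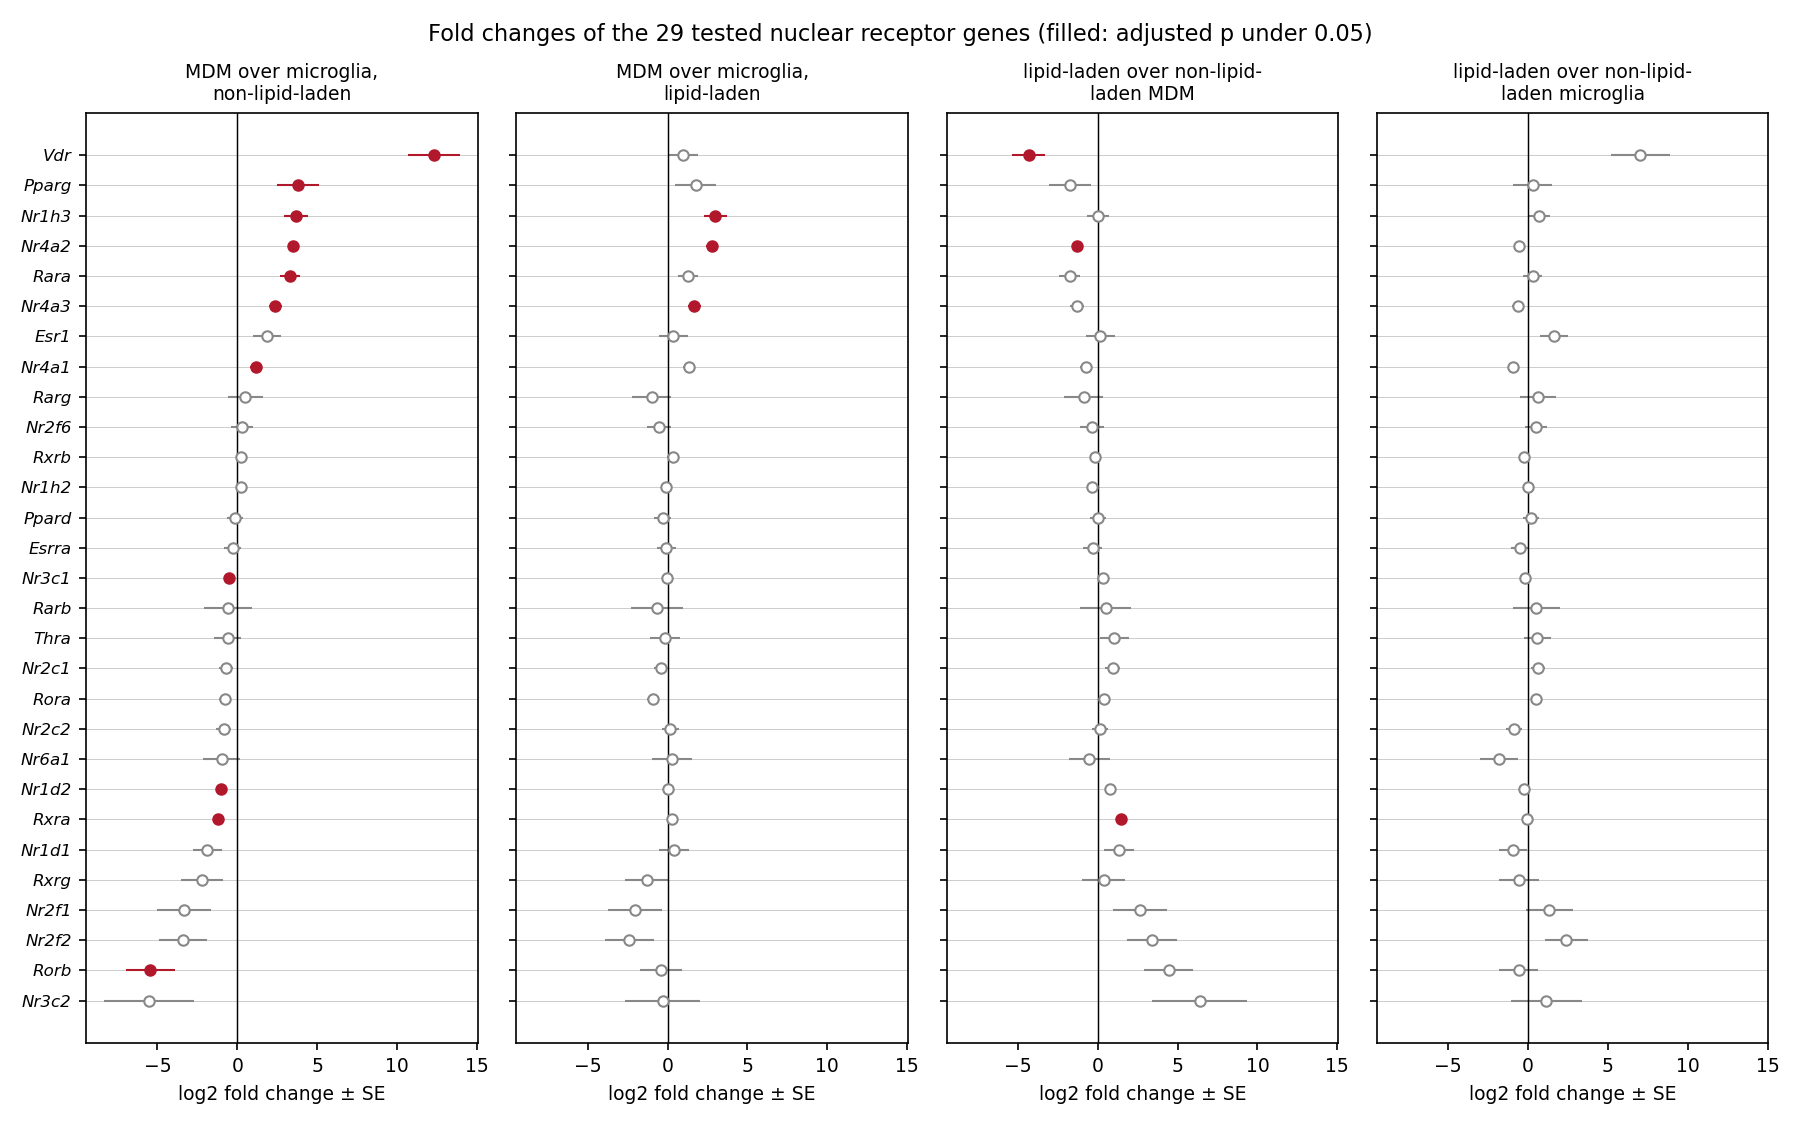
Log2 fold changes with standard errors of the 29 tested members in 4 comparisons, ordered by the fold change of MDM over microglia without lipid load. Filled points passed an edgeR adjusted p of 0.05 in the fit without the block: 11, 3, 3 and 0 members from left to right.

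The NR4A receptors (Nur77, encoded by Nr4a1, with Nurr1 from Nr4a2 and NOR-1 from Nr4a3) are immediate early transcription factors, and Nr4a1 is known for its part in the survival of patrolling monocytes. Together they held between 48.1% and 90.8% of the members' counts in a library. Promoters of these genes are known to respond to cyclic AMP through CRE sites, so their promoters are shown with each CRE half-site (TGACG, or CGTCA on the other strand) in capitals. The windows run from 250 bases before to 50 bases after the RefSeq start (GRCm38.p6), 5′ to 3′ on the gene's strand, at chr15:101266596-101266895 (+), chr2:57123954-57124253 (-) and chr4:48045055-48045354 (+). The Nr4a1 start lies inside the gene as the count table places it, on chromosome 15 from 101254269 to 101274795.
Nr4a1: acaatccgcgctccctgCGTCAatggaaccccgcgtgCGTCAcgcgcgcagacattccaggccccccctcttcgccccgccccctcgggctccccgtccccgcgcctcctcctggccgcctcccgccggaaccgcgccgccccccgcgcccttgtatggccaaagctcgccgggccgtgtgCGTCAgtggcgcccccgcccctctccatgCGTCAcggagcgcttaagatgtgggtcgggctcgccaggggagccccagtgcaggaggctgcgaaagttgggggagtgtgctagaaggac
Nr4a2: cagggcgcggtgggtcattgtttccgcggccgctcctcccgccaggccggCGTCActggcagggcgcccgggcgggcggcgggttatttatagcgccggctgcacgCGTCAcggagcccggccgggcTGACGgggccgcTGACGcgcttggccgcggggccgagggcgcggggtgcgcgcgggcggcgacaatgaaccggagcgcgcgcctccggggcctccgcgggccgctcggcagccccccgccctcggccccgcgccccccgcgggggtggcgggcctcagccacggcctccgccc
Nr4a3: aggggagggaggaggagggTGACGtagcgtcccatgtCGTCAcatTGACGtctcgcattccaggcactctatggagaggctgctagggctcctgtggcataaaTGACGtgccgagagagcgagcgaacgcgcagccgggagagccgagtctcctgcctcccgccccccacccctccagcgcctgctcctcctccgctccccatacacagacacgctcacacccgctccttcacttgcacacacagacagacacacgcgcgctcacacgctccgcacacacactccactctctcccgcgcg
Each of the 3 windows held 4 half-sites. Of the 32544 promoters listed by RefSeq, 0.234% held 4 or more, and 20.9% of promoters held at least 1. None of the 3 held the full palindrome TGACGTCA, which 1.80% of all promoters held. GC content was 72.3% for Nr4a1, 81.7% for Nr4a2 and 64.7% for Nr4a3, against a median of 53.0%. A match is a string of letters and was not tested for binding.

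Of the 3, Nr4a2 (ENSMUSG00000026826, chromosome 2, 57106830 to 57124003) had the largest fold between origins. It had 682, 270 and 340 CPM in lipid-laden MDM (libraries 224, 221 and 718), and 1201, 790, 1203 and 971 CPM in non-lipid-laden MDM (224, 221, 431 and 718). Lipid-laden microglia had 105, 42.7, 41.3 and 63.9 CPM and non-lipid-laden microglia 97.7, 90.0, 69.5 and 113 CPM, in that order of numbers. Every MDM library lay above every microglial one, and every lipid-laden MDM library lay below every non-lipid-laden one. Without lipid load, Nr4a2 was higher in MDM than in microglia by 3.49 on the log2 scale (SE 0.34, edgeR adjusted p = 3.71e-06, 4 of 4 number-matched pairs). With lipid load it was higher by 2.77 (SE 0.34, edgeR adjusted p = 0.000399, 3 of 3 pairs). Both calls held with any single library of the compared groups left out. Here and below, a library was left out only in the comparisons that use its group. Lipid-laden MDM had less Nr4a2 than non-lipid-laden MDM (log2 fold change -1.27, SE 0.34, edgeR adjusted p = 0.0324, lower in 3 of 3 pairs). That call was lost without lipid-laden MDM 221 or 718, or non-lipid-laden MDM 224, 431 or 718 (adjusted p from 0.0531 to 0.138). In this comparison the summed microglial markers were 3.01-fold higher in lipid-laden MDM. The summed dendritic cell markers were 9.29-fold lower there, and the monocyte-derived ones 2.09-fold lower. Their part in the levels of Nr4a1, Nr4a2 and Nr4a3 was not tested.

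Nr4a1 had 2192, 784 and 1608 CPM in lipid-laden MDM and 2986, 2217, 2412 and 2724 CPM in non-lipid-laden MDM. It had 881, 351, 471 and 743 CPM in lipid-laden microglia and 1484, 889, 748 and 1525 CPM in non-lipid-laden microglia. In both origins the lipid-laden library lay below its number-matched partner in every pair, and library 221 was the lowest of both lipid-laden groups. Nr4a1 was higher in MDM without lipid load (log2 fold change 1.15, SE 0.33, edgeR adjusted p = 0.0176), a call that held with any single library left out and was lost in the numbers present in all groups (adjusted p of 0.0729). With lipid load the difference between origins was 1.32 (SE 0.35, edgeR adjusted p = 0.0530, 3 of 3 pairs higher), and with the title number as a block, where 3.83% of all genes were called, the edgeR adjusted p was 0.00255. Without lipid-laden microglia 224 or lipid-laden MDM 221 it passed also without the block (edgeR adjusted p of 0.0154 to 0.0341). Between lipid-laden and non-lipid-laden MDM it differed by -0.76 (SE 0.35, edgeR adjusted p = 0.214). Between lipid-laden and non-lipid-laden microglia Nr4a1 was at -0.93 (SE 0.32, edgeR adjusted p = 0.377). With the block it was the 1 member called there, against 0.802% of all genes (log2 fold change -0.95, edgeR adjusted p = 0.0195, 4 of 4 pairs lower).

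Nr4a3 had 212, 82.9 and 156 CPM in lipid-laden MDM and 381, 310, 461 and 347 CPM in non-lipid-laden MDM, against 82.7, 19.1, 33.3 and 52.0 CPM in lipid-laden microglia and 87.1, 43.0, 53.2 and 103 CPM in non-lipid-laden microglia. The 2 MDM groups did not overlap, and non-lipid-laden MDM lay above all microglia. Nr4a3 was higher in MDM without lipid load (log2 fold change 2.39, SE 0.40, edgeR adjusted p = 0.000504) and with it (1.69, SE 0.42, edgeR adjusted p = 0.0398). The first call held with any single library left out. The second was lost without lipid-laden MDM 224 or 718, or lipid-laden microglia 221, 431 or 718 (adjusted p from 0.0686 to 0.222), in the compared groups alone (0.134) and in the numbers present in all groups (0.136). Lipid-laden over non-lipid-laden MDM was at -1.32 (SE 0.43, edgeR adjusted p = 0.0722), and it passed with DESeq2 (0.00897), limma-voom (0.0102) and edgeR on the compared groups alone (0.0195). The make-up of the subfamily also differed by origin: per kilobase, Nr4a2 held 19 ± 3.74% of the summed NR4A level in lipid-laden MDM and 24.2 ± 2.70% in non-lipid-laden MDM, against 7.90 ± 1.37% in lipid-laden microglia and 6.51 ± 1.21% in non-lipid-laden microglia (SD).

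Other immediate early genes were called in both directions between origins. All 19 such genes were tested. In non-lipid-laden MDM 2 were higher and 7 lower than in microglia, against 10.7% and 12.5% of all genes (median 0.18 against -0.12). Those with the smallest p were Klf2, a Krüppel-like factor (log2 fold change -2.25), Btg2, an antiproliferative gene (1.27), and the zinc finger factors Egr1 (-1.51) and Egr3 (-1.66). Btg2 alone was called between lipid-laden and non-lipid-laden MDM, lower (log2 fold change -1.40, edgeR adjusted p = 0.00105, median of the list -0.37), and alone between the lipid-laden groups, higher in MDM (0.84, median 0.21), where with the block Zfp36 was also higher. In microglia all 19 had a negative log2 fold change with lipid load, with a median of -0.63 against -0.02 over all genes. None of them passed there, and with the block 6 did, all lower: Btg2, Atf3, Klf6, Ier2, Jun and Zfp36. In the same comparison Nr4a1, Nr4a2 and Nr4a3 were also negative without the block, at -0.93, -0.55 and -0.61. Immediate early genes are known to rise during tissue dissociation, and its part in the NR4A levels was not tested.

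**Figure D3:**
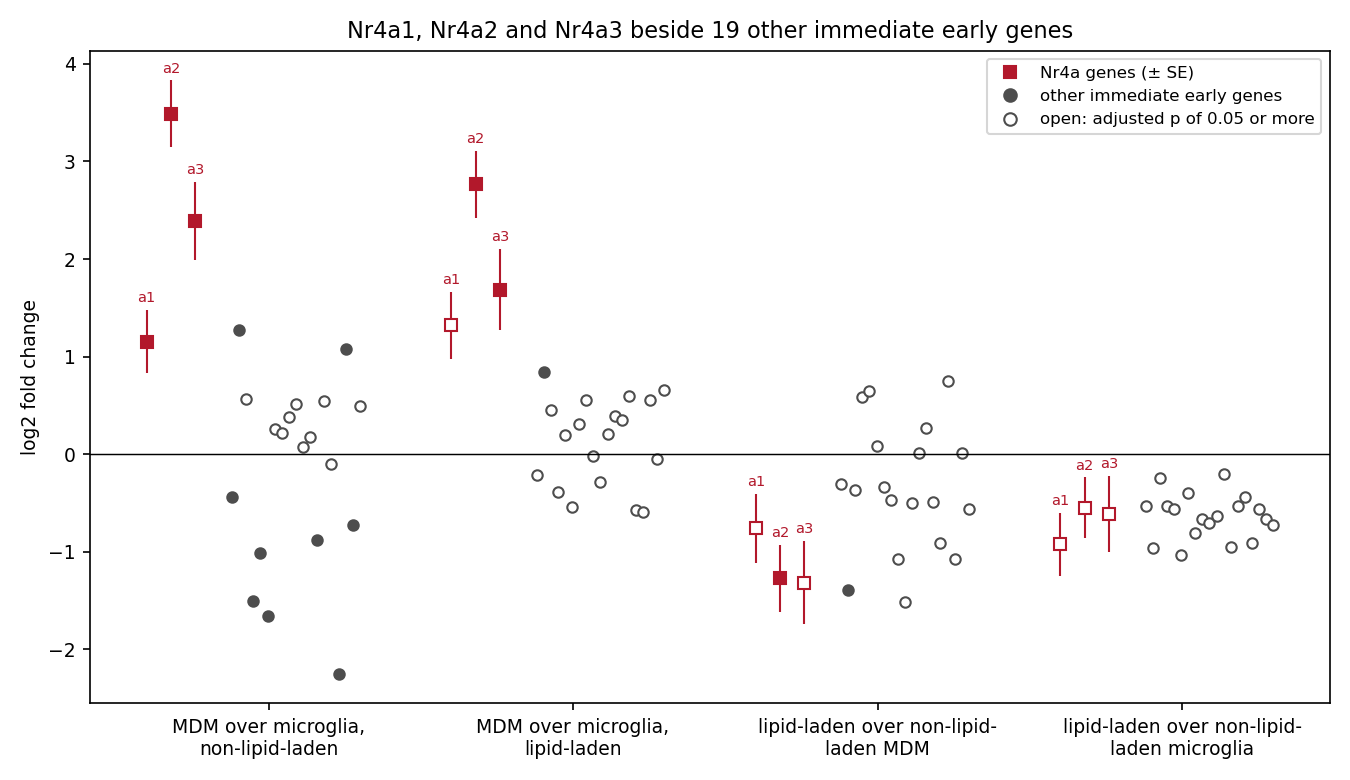
Log2 fold changes of Nr4a1, Nr4a2 and Nr4a3 (squares, labelled a1 to a3, with SE) beside 19 other immediate early genes (circles) in 4 comparisons; filled symbols passed an adjusted p of 0.05. All 3 NR4A genes lay above 0 in both comparisons of MDM over microglia. In lipid-laden over non-lipid-laden microglia all 3 lay below 0, as did all 19 other genes.

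Vdr (ENSMUSG00000022479, chromosome 15, 97854425 to 97910630, mm10), the receptor for the hormonal form of vitamin D, had the largest fold of any member between non-lipid-laden MDM and microglia. Its promoter is shown as that of a gene with no count in one group, and those of the other members without a count in a group are not shown. The window is chr15:97908247-97908546 (-) of GRCm38.p6 from RefSeq, with each GC box (GGGCGG, or CCGCCC on the other strand) in capitals.
Vdr: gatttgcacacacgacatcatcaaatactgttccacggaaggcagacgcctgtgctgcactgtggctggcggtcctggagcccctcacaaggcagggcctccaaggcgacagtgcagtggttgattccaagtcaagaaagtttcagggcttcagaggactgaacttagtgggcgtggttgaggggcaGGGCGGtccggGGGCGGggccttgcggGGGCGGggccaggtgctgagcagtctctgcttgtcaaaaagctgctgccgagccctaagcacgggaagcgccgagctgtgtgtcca
It held 3 GC boxes, and its GC content was 61.3%. Of all promoters 10.8% held 3 or more, and 35.9% held at least 1. Vdr had 30, 31 and 38 counts in lipid-laden MDM (3.24, 3.41 and 3.59 CPM), and 587, 578, 713 and 622 counts in non-lipid-laden MDM (59.0, 67.3, 92.7 and 56.3 CPM). Lipid-laden microglia had 0, 49, 0 and 19 counts, from libraries 224, 221, 431 and 718, and all 4 libraries of non-lipid-laden microglia had 0. Non-lipid-laden MDM lay far above all other libraries, and the other groups lay under 5 CPM.

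With 2500 counts in non-lipid-laden MDM and 0 in microglia, Vdr was at least 794-fold higher in MDM, taking 3 counts over the microglial group (edgeR adjusted p = 0.000141). In lipid-laden MDM it fell to a mean of 3.41 ± 0.17 CPM (SD, n = 3), against 68.8 ± 16.6 CPM in non-lipid-laden MDM (n = 4), which was 20.2-fold lower (log2 fold change -4.33, SE 1.04, edgeR adjusted p = 0.0236). The groups did not overlap, but the call was lost without lipid-laden MDM 224, 221 or 718, or non-lipid-laden MDM 431 (adjusted p from 0.0577 to 0.0897). Lipid-laden microglia had 68 counts, which stood against 0 in non-lipid-laden microglia, at least 20.9-fold higher, but from 2 of the 4 libraries (edgeR adjusted p = 0.245). Between lipid-laden MDM and lipid-laden microglia the ranges overlapped (log2 fold change 0.98, SE 0.93, edgeR adjusted p = 0.720). The lipid-laden effect in MDM differed from that in microglia (edgeR adjusted p = 0.0110), a call that held with any single library left out. Its fitted log2 difference of -11.35 rests on the group at 0 and is no bound.

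The dendritic cell markers moved with Vdr between the MDM groups and between the non-lipid-laden groups. Their summed mean was 221 CPM in lipid-laden MDM and 2049 CPM in non-lipid-laden MDM, 9.29-fold lower in the lipid-laden cells, and 7 of the 10 were called lower there. All 10 were called higher in non-lipid-laden MDM than in microglia. In lipid-laden microglia their summed mean was below that of non-lipid-laden microglia (12.7 against 33.5 CPM), while Vdr had 68 against 0 counts. Between the lipid-laden groups 8 of the 10 were called higher in MDM. Vdr averaged 3.41 CPM in lipid-laden MDM and 1.71 CPM in lipid-laden microglia, in the same direction, but was not called. Flt3, the receptor that drives dendritic cell development, was at -3.32 on the log2 scale in lipid-laden over non-lipid-laden MDM, and Zbtb46, a transcription factor of conventional dendritic cells, was at -3.82, both called lower. Summed monocyte-derived markers and summed B and plasma cell markers were also lower in lipid-laden than in non-lipid-laden MDM, 2.09-fold and 6.52-fold. Both were higher in non-lipid-laden MDM than in non-lipid-laden microglia, 7.55-fold and 69.8-fold. The part of these and of the dendritic cell markers in the Vdr result was not tested. Of 8 genes of vitamin D handling, 3 were tested, and only Cyp27a1, a sterol hydroxylase that also acts on vitamin D, was called. It averaged 40.1 ± 5.95 CPM in lipid-laden MDM, 44.0 ± 6.21 CPM in non-lipid-laden MDM, 9.80 ± 3.59 CPM in lipid-laden microglia and 17.2 ± 5.50 CPM in non-lipid-laden microglia (SD). It was higher in MDM by 1.35 on the log2 scale without lipid load (SE 0.29, edgeR adjusted p = 0.00338) and 2.03 with it (SE 0.31, edgeR adjusted p = 0.00186). Cyp24a1, the enzyme that breaks vitamin D down and a classical VDR target, had 0 counts in all libraries, and Cyp27b1, the activating enzyme, had 12 counts in all, from non-lipid-laden MDM.

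**Figure D4:**
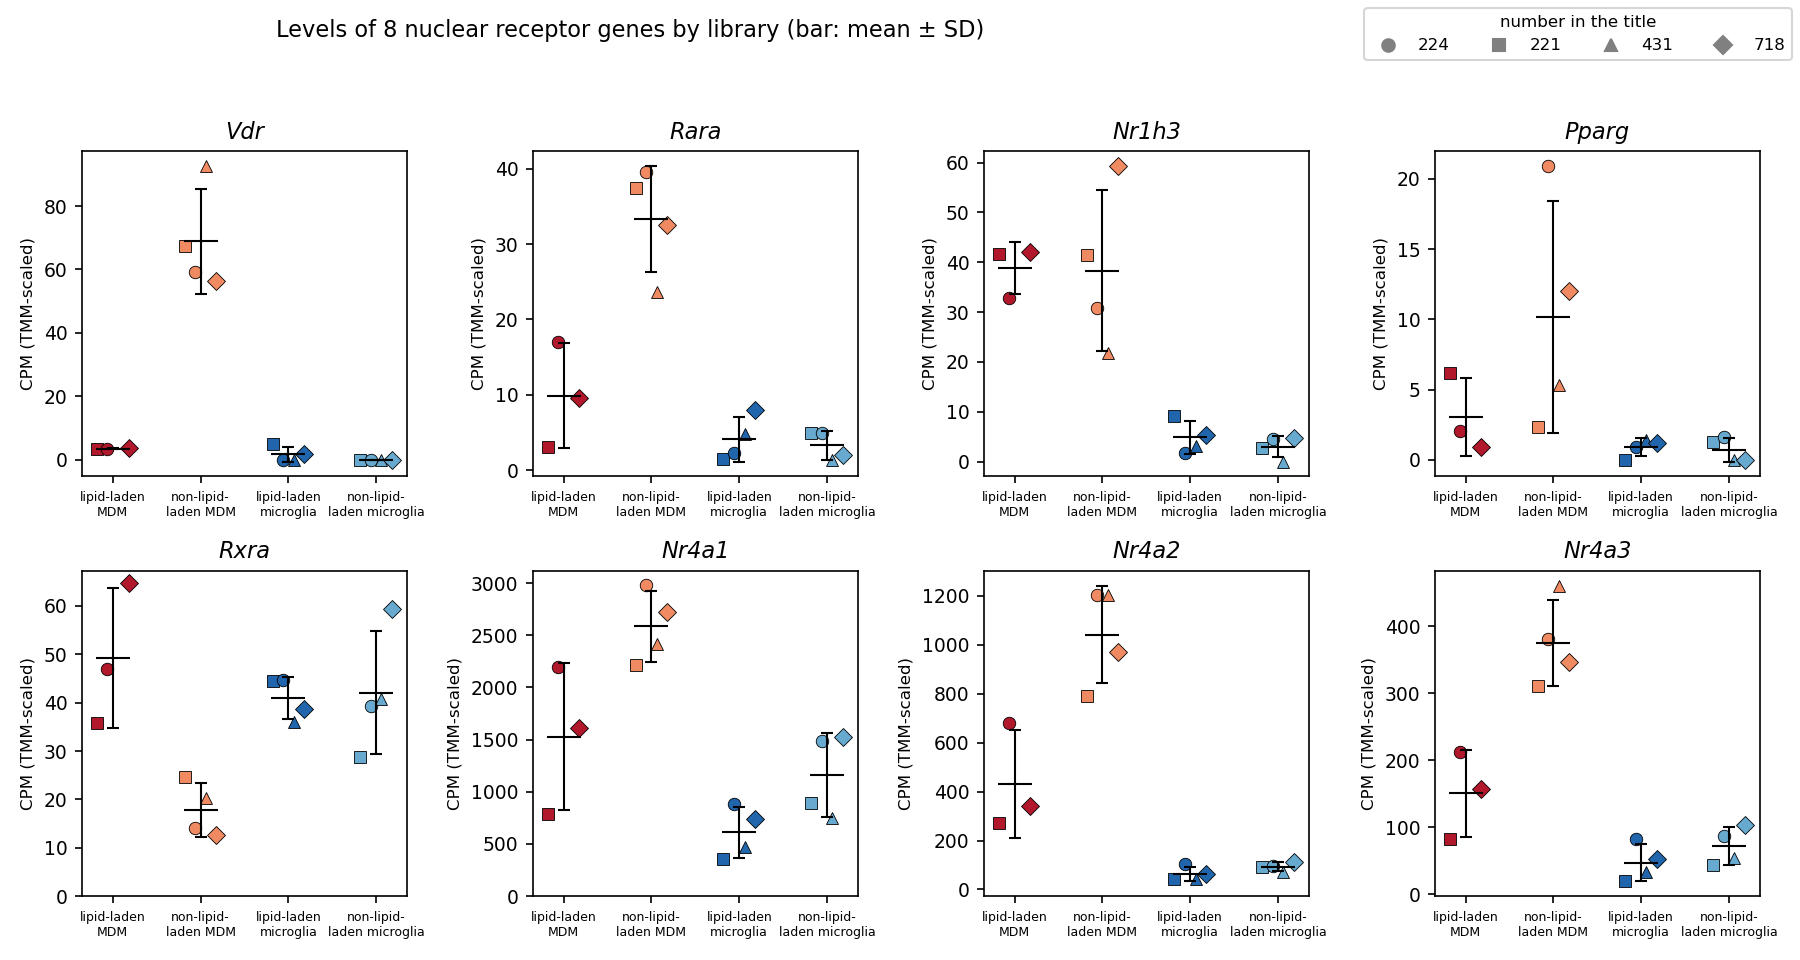
Levels in CPM of 8 members by library, with groups from lipid-laden MDM on the left to non-lipid-laden microglia on the right; symbols mark the title number and bars the mean ± SD (n = 3 or 4). Vdr was at 56.3 to 92.7 CPM in non-lipid-laden MDM and under 5 CPM elsewhere, whereas Rxra was lowest in non-lipid-laden MDM, at 12.7 to 24.6 CPM.

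Of the LXR genes, Nr1h3 was called between origins and Nr1h2 was not. Nr1h3 (ENSMUSG00000002108, chromosome 2, 91184061 to 91202834) encodes LXR-alpha, the inducible isotype of macrophages, and Nr1h2 encodes LXR-beta, which is made in most cells. Nr1h3 had 32.8, 41.6 and 42.1 CPM in lipid-laden MDM and 30.9, 41.5, 21.7 and 59.3 CPM in non-lipid-laden MDM, against 1.67, 9.22, 3.19 and 5.38 CPM in lipid-laden microglia and 4.51, 2.79, 0 and 4.67 CPM in non-lipid-laden microglia. All MDM libraries lay above all microglial ones. Nr1h3 was higher in MDM without lipid load by 3.68 (SE 0.74, edgeR adjusted p = 0.00198), a call that held with any single library left out. With lipid load it was higher by 2.99 (SE 0.73, edgeR adjusted p = 0.0385). That call was lost without lipid-laden MDM 224, 221 or 718, or lipid-laden microglia 224, 431 or 718 (adjusted p from 0.0806 to 0.109). Lipid load did not move it past the test in either origin, at 0.02 (SE 0.70) in MDM and 0.70 (SE 0.69) in microglia. Nr1h2 was at group means of 85 to 107 CPM and was called in no comparison. Per kilobase, Nr1h3 made up 38.3 ± 7.15% of the summed LXR level in lipid-laden MDM and 32.1 ± 11.6% in non-lipid-laden MDM, against 6.59 ± 4.42% in lipid-laden microglia and 4.01 ± 2.98% in non-lipid-laden microglia (SD).

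Known LXR target genes moved in both directions. Of 14 listed, 13 were tested. Without lipid load 3 were higher and 5 lower in MDM than in microglia, against 10.7% and 12.5% of all genes (median -0.24). The phosphodiesterase gene Smpdl3a (3.46) and the phospholipid transfer gene Pltp (2.94) were higher, and the efferocytosis receptor gene Mertk (-1.65) and the cholesterol exporter gene Abca1 (-1.12) were lower on the log2 scale. Between lipid-laden and non-lipid-laden MDM 4 were higher in the lipid-laden cells and 2 lower (median 0.44), with Abca1 at 1.32, Mertk at 1.22, the exporter gene Abcg1 at 0.97 and Smpdl3a at -0.86. Abca1 averaged 629 ± 185 CPM in lipid-laden MDM, 252 ± 7.91 CPM in non-lipid-laden MDM, 635 ± 40.0 CPM in lipid-laden microglia and 545 ± 70.9 CPM in non-lipid-laden microglia (SD). Its level in lipid-laden MDM was thus near that of microglia. Between the lipid-laden groups 2 were higher in MDM (Smpdl3a 2.12 and Pltp 2.56) and 1 lower (the desaturase gene Scd2, -0.83), with a median of -0.05. With lipid load none passed in microglia (median 0.18), and with the block 1 was higher and 1 lower. The effect of lipid load differed between origins for Mertk, Smpdl3a and Abca1 (1.60, -1.34 and 1.10). The summed microglial markers were 3.01-fold higher in lipid-laden than in non-lipid-laden MDM, with 9 of 10 called higher. Their part in the levels of these target genes was not tested.

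RXRs, the obligate partners of LXR, PPAR, RAR, VDR and thyroid hormone receptors, are encoded by Rxra, Rxrb and Rxrg. Rxra (ENSMUSG00000015846, chromosome 2, 27676440 to 27762957) had 47.0, 35.9 and 64.6 CPM in lipid-laden MDM and 14.0, 24.6, 20.3 and 12.7 CPM in non-lipid-laden MDM, against 44.7, 44.5, 36.0 and 38.8 CPM in lipid-laden microglia and 39.4, 28.7, 40.7 and 59.3 CPM in non-lipid-laden microglia. Non-lipid-laden MDM lay below all other libraries. Rxra was lower in MDM than in microglia without lipid load (log2 fold change -1.24, SE 0.27, edgeR adjusted p = 0.00392) and higher in lipid-laden than in non-lipid-laden MDM (1.46, SE 0.29, edgeR adjusted p = 0.00536). Both comparisons use the non-lipid-laden MDM libraries, and both calls held with any single library left out. Between the lipid-laden groups it differed by 0.26 (SE 0.29, edgeR adjusted p = 0.765). Between origins its lipid-laden effect differed by 1.50 (SE 0.39, edgeR adjusted p = 0.0564), and it passed without lipid-laden MDM 221, non-lipid-laden MDM 221 or non-lipid-laden microglia 221 (adjusted p from 0.0346 to 0.0463).

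Markers of microglia and of glioma progenitors moved with Rxra. The microglial markers summed to means of 7417 CPM in lipid-laden MDM and 2467 CPM in non-lipid-laden MDM, 3.01-fold higher in the lipid-laden cells, with 9 of 10 called higher, and all 10 were called lower in non-lipid-laden MDM than in microglia. Rxra itself was 2.75-fold higher in lipid-laden MDM. The 9 glioma progenitor markers (among them Pdgfra, Olig2 and Sox10) summed to 108 to 195 CPM in lipid-laden MDM, 11.8 to 25.3 CPM in non-lipid-laden MDM, 186 to 603 CPM in lipid-laden microglia and 158 to 572 CPM in non-lipid-laden microglia, with 6 of 9 called higher in lipid-laden than in non-lipid-laden MDM and none at 0 in a group. Their part in the Rxra result was not tested.

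Rxrb, the widely expressed isotype, was at group means of 19.6 to 27.8 CPM and was called in no comparison. Rxrg, the isotype of muscle and nervous tissue, had 0, 6.60 and 0 CPM in lipid-laden MDM, with its 60 counts all in library 221, and 3.02, 1.86, 0 and 1.81 CPM in non-lipid-laden MDM. It had 3.45, 8.52, 2.47 and 6.80 CPM in lipid-laden microglia and 7.94, 12.6, 3.27 and 7.45 CPM in non-lipid-laden microglia. It passed in no comparison with all libraries. Without lipid-laden MDM 221 it was lower in lipid-laden than in non-lipid-laden MDM (edgeR adjusted p = 0.0460) and lower than in lipid-laden microglia (edgeR adjusted p = 0.0321). Per kilobase, Rxra made up 55.7 ± 11.8% of the summed RXR level in lipid-laden MDM and 29.5 ± 5.77% in non-lipid-laden MDM, against 51.5 ± 5.13% in lipid-laden microglia and 45.3 ± 9.32% in non-lipid-laden microglia (SD). The summed RXR level was 16.1 ± 2.45, 11.0 ± 2.12, 14.8 ± 2.67 and 17 ± 3.63 RPKM in the same order.

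**Figure D5:**
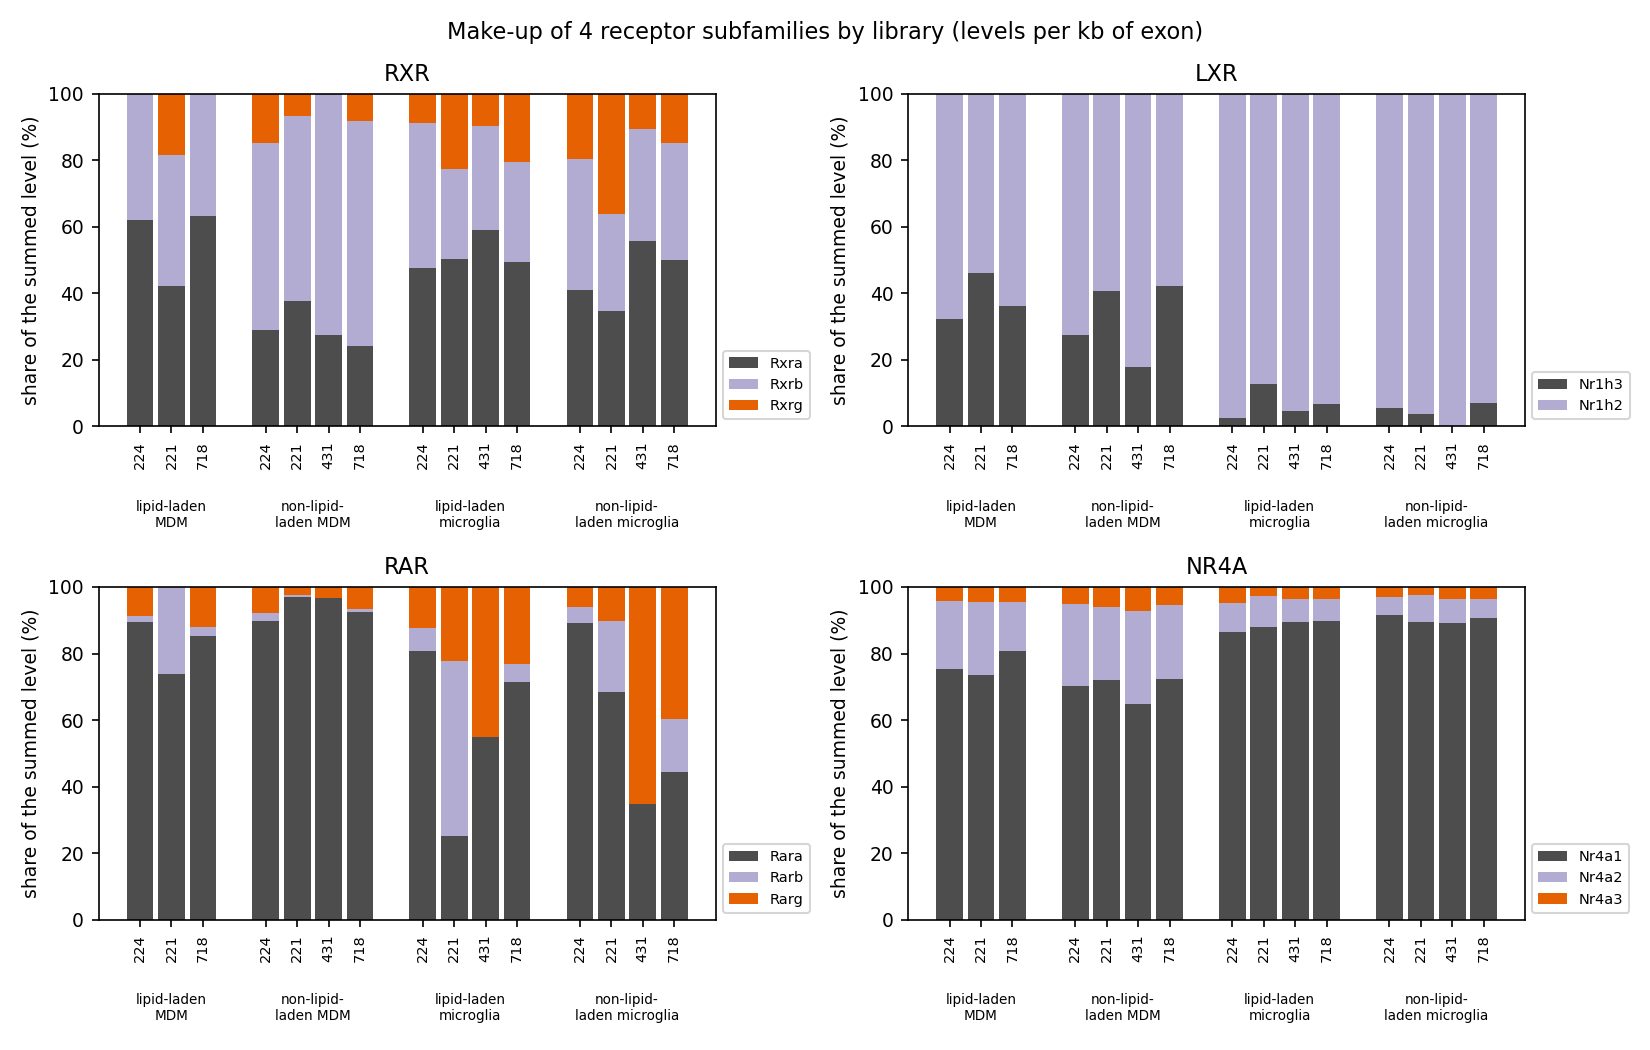
Share of each isotype in the summed level per kilobase of 4 receptor subfamilies, one bar per library, grouped from lipid-laden MDM to non-lipid-laden microglia. Rxra took 24.1% to 37.6% of the RXR level in non-lipid-laden MDM, and Nr1h3 took at most 12.7% of the LXR level in any microglial library.

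The retinoic acid receptors (RAR) were carried mostly by Rara in MDM. Rara had 17, 3.08 and 9.63 CPM in lipid-laden MDM and 39.5, 37.5, 23.7 and 32.6 CPM in non-lipid-laden MDM, against 2.22, 1.40, 4.73 and 8.02 CPM in lipid-laden microglia and 4.94, 4.95, 1.28 and 2.02 CPM in non-lipid-laden microglia. Non-lipid-laden MDM lay above all other libraries. Rara was higher in MDM without lipid load by 3.33 (SE 0.63, edgeR adjusted p = 0.00135), a call that held with any single library left out. Lipid-laden over non-lipid-laden MDM was at -1.75 (SE 0.65, edgeR adjusted p = 0.117), with no overlap and 3 of 3 pairs lower. It passed with DESeq2 (0.0392) and limma-voom (0.0133). Microglial, dendritic cell and monocyte-derived marker sums also differed between these MDM groups, and their part in the Rara levels was not tested. Rarb and Rarg averaged under 2 CPM in each group and were called in no comparison, and Rarb shares 1793 exon bases with Top2b on the other strand, so its counts are uncertain.

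Of 14 genes of retinoid handling, 12 were tested. In non-lipid-laden MDM 2 were higher and 2 lower than in microglia, against 10.7% and 12.5% of all genes (median 0.13). Among these were the transglutaminase gene Tgm2 (1.45), the retinoic acid-degrading Cyp26b1 (5.79) and the retinoic acid-making Aldh1a3 (-4.34). With lipid load in MDM, Fabp5, a fatty acid binding protein gene (1.02), and Aldh1a3 (3.42) were higher and none was lower (median 0.85). Fabp5 averaged 119 ± 28.5 CPM in lipid-laden MDM, 58.5 ± 12.1 CPM in non-lipid-laden MDM, 136 ± 22.9 CPM in lipid-laden microglia and 58.3 ± 14.4 CPM in non-lipid-laden microglia (SD). In microglia none passed (median 0.60), and with the block Fabp5 was higher (log2 fold change 1.22 without the block, edgeR adjusted p = 0.0117 with it). None was called between the lipid-laden groups (median -0.43), where with the block Tgm2 was higher (edgeR adjusted p = 0.0416).

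Of the PPAR genes, Pparg, the regulator of fat storage and of alternative activation in macrophages, was called between origins without lipid load. It had 2.05, 6.16 and 0.94 CPM in lipid-laden MDM and 20.9, 2.33, 5.33 and 12 CPM in non-lipid-laden MDM, against 0.89, 0, 1.44 and 1.22 CPM in lipid-laden microglia and 1.61, 1.24, 0 and 0 CPM in non-lipid-laden microglia. The spread within non-lipid-laden MDM was wide, and its lowest library lay just above the highest microglial one. Pparg was higher in MDM without lipid load by 3.79 (SE 1.31, edgeR adjusted p = 0.0469). This call was lost without non-lipid-laden MDM 224, 431 or 718, or any one library of non-lipid-laden microglia (adjusted p from 0.0515 to 0.136), and in the numbers present in all groups (0.095). Between the lipid-laden groups Pparg was at 1.77 (edgeR adjusted p = 0.593), and lipid-laden over non-lipid-laden MDM was at -1.73 (edgeR adjusted p = 0.487), with overlap in both. Ppard, the broadly expressed isotype, was at group means of 9.47 to 11.9 CPM and was called in no comparison. Of 14 PPAR target and fatty acid oxidation genes, 13 were tested. Without lipid load the carnitine carrier gene Slc25a20 (1.89) and Ech1 (0.49) were called, both higher in MDM (median 0.23). With lipid load in MDM, the lipid droplet coat gene Plin2 was higher (0.90) and Slc25a20 lower (-1.26), with a median of 0.14. None passed in microglia (median 0.28) or between the lipid-laden groups (median 0.08).

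REV-ERB and ROR receptors compete for the same sites in the circadian clock, where REV-ERBs repress and RORs activate. Nr1d2, encoding REV-ERB-beta, had 23.7, 12.2 and 18.6 CPM in lipid-laden MDM and 15.3, 8.50, 7.93 and 10.9 CPM in non-lipid-laden MDM, against 17.8, 19.9, 14.6 and 19.3 CPM in lipid-laden microglia and 24.2, 18.1, 21.1 and 22.8 CPM in non-lipid-laden microglia. It was lower in MDM without lipid load, with no overlap (log2 fold change -1.02, SE 0.29, edgeR adjusted p = 0.0190). The call was lost without non-lipid-laden MDM 221 or 431 or non-lipid-laden microglia 224 (adjusted p from 0.0528 to 0.0558), with no filter on low counts (0.0596) and in the numbers present in all groups (0.0872). Nr1d1, encoding REV-ERB-alpha, averaged 7.02, 2.77, 5.36 and 10.3 CPM in lipid-laden MDM, non-lipid-laden MDM, lipid-laden microglia and non-lipid-laden microglia and was called in no comparison. Its 3′ end shares 263 exon bases with Thra on the other strand, and strand use in counting is not given, so both values are uncertain.

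Rorb, a ROR of neural tissue, had 5, 0 and 60 counts in lipid-laden MDM and 0, 1, 1 and 1 counts in non-lipid-laden MDM, against 50, 30, 1 and 23 counts in lipid-laden microglia and 16, 96, 31 and 11 counts in non-lipid-laden microglia. Without lipid load, its 3 counts in MDM against 154 in microglia gave a level 53.9-fold higher in microglia (95% exact interval 18.1 to 264, counting error only; edgeR adjusted p = 0.0183). The call was lost without non-lipid-laden MDM 224 or non-lipid-laden microglia 221 (adjusted p of 0.0508 and 0.0515). Between lipid-laden and non-lipid-laden MDM, Rorb had 65 against 3 counts, a 27.9-fold ratio (9.14 to 139), with 60 of the 65 in library 718 (log2 fold change 4.45, edgeR adjusted p = 0.0890). Without that library the log2 fold change was 1.57 (edgeR adjusted p = 0.634). The difference passed without lipid-laden MDM 221 (edgeR adjusted p = 0.0483), without both lipid-laden libraries numbered 221 (0.0495) and with DESeq2 (0.0287). Rora, the ROR made in many tissues, averaged 18.0, 13.7, 33.4 and 23.7 CPM in the same order of groups and was called in no comparison. The summed glioma progenitor markers were 24.1-fold higher in non-lipid-laden microglia than in non-lipid-laden MDM. They were 9.37-fold higher in lipid-laden than in non-lipid-laden MDM. Non-lipid-laden microglia 221 had the most of them (572 CPM) and of Rorb in its group. Lipid-laden microglia 718 had 603 CPM and 23 Rorb counts, and 224 had 244 CPM and 50 counts. The part of these markers in the Rorb levels was not tested.

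Of 15 other clock genes, 14 were tested. In non-lipid-laden MDM against microglia 4 were higher and 2 lower (median -0.59), among them the repressor genes Bhlhe40 (3.24) and Nfil3 (1.80) and the period gene Per1 (0.88), with Bhlhe41 lower (-2.79). With lipid load in MDM, Bhlhe41 was higher (1.88) and Bhlhe40 (-1.78) and Per1 (-0.82) lower (median 0.32). Bhlhe40 averaged 404 ± 148 CPM in lipid-laden MDM, 1384 ± 209 CPM in non-lipid-laden MDM, 189 ± 61.4 CPM in lipid-laden microglia and 146 ± 23.3 CPM in non-lipid-laden microglia (SD). Between the lipid-laden groups Bhlhe40 alone was higher in MDM (1.10), and in microglia none passed with lipid load (median 0.03). The lipid-laden effect differed between origins for Bhlhe40 (-2.14) and Bhlhe41 (1.98). The time of day of sampling was not given in the sources used here.

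Among steroid receptors Nr3c1, the glucocorticoid receptor gene, was expressed in all groups. It had 121, 116 and 108 CPM in lipid-laden MDM and 86.5, 74.2, 104 and 109 CPM in non-lipid-laden MDM, against 151, 106, 128 and 87.2 CPM in lipid-laden microglia and 139, 128, 133 and 134 CPM in non-lipid-laden microglia. Without lipid load it was lower in MDM by a small step, with no overlap (log2 fold change -0.52, SE 0.17, edgeR adjusted p = 0.0370). The call was lost without non-lipid-laden MDM 224 or 221 or any one library of non-lipid-laden microglia (adjusted p from 0.0588 to 0.107), with no filter on low counts (0.0756), without both lipid-laden libraries numbered 221 (0.0541) and in the numbers present in all groups (0.0825). Of 12 glucocorticoid-responsive genes, Per1 (0.88) and Klf9 (2.42) were higher and the kinase gene Sgk1 (-0.81) lower in non-lipid-laden MDM than in microglia (median 0.33). Of all genes, 23.2% were called there. Per1 was lower in lipid-laden than in non-lipid-laden MDM (median of the list -0.31). None passed in microglia with lipid load (median -0.38) or between the lipid-laden groups (median 0.25). With the block, Zfp36 was lower in lipid-laden microglia, and between the lipid-laden groups Zfp36 was higher and Sgk1 lower in MDM.

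Nr3c2, the mineralocorticoid receptor gene, was near 0 outside number 221. It had 1, 29 and 0 counts in lipid-laden MDM (224, 221 and 718), 0 in all 4 libraries of non-lipid-laden MDM, 0, 54, 0 and 0 counts in lipid-laden microglia and 0, 22, 0 and 1 counts in non-lipid-laden microglia. It was called in no comparison. Its 30 counts in lipid-laden MDM were at least 12.9-fold higher than in non-lipid-laden MDM, and non-lipid-laden MDM was at least 8.05-fold lower than non-lipid-laden microglia, with nearly all of these counts from number 221. Esr1, the oestrogen receptor alpha gene, averaged 8.79 ± 4.95 CPM in lipid-laden MDM, 7.97 ± 4.87 CPM in non-lipid-laden MDM, 6.81 ± 6.91 CPM in lipid-laden microglia and 2.19 ± 1.69 CPM in non-lipid-laden microglia (SD). Esrra, encoding an oestrogen-related receptor of mitochondrial genes that binds no oestrogen, averaged 4.16 to 6.36 CPM over the groups, and 73 of its exon bases are shared with Trmt112. Neither was called in any comparison.

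Thyroid hormone receptor genes were low. Thra averaged 2.05 to 4.72 CPM over the groups and was called in no comparison. Thrb had 31 counts in lipid-laden MDM, all in library 224, 2 in non-lipid-laden MDM, 0 in lipid-laden microglia and 25 in non-lipid-laden microglia, all in library 224. Each group's counts thus came from 1 library. Thrb was at least 13.8-fold higher in lipid-laden MDM than in lipid-laden microglia, and lipid-laden microglia were at least 9.05-fold lower than non-lipid-laden microglia, for counting error only. Of 8 genes of thyroid hormone transport and response, 5 were tested. In non-lipid-laden MDM against microglia 1 was higher and 3 were lower (median -1.08), among them Klf9 (2.42), Thrsp (-3.17) and the transporter gene Slc16a10 (-1.08). Thrsp was higher in lipid-laden than in non-lipid-laden MDM (1.97, median of the list 0.74). None passed in lipid-laden against non-lipid-laden microglia (median -0.09) or between the lipid-laden groups (median -0.31).

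The orphan receptors of the NR2 and NR6 subfamilies were called in no comparison. Nr2c1 and Nr2c2, encoding the testicular receptors TR2 and TR4, averaged 8.81 to 21.9 CPM and 9.35 to 17.3 CPM over the groups. Nr2c2 shares 4590 of its 14935 exon bases with Mrps25 and is uncertain. Nr2f1 and Nr2f2, the COUP-TF genes that pattern brain and vessels, averaged 0.78 and 0.68 CPM in lipid-laden MDM, 0.12 and 0.05 CPM in non-lipid-laden MDM, 3.21 and 3.62 CPM in lipid-laden microglia and 1.27 and 0.68 CPM in non-lipid-laden microglia. The 7 vascular markers, none at 0 in a group, summed to 34.5 to 89.8, 13.6 to 109, 22.9 to 256 and 14.6 to 112 CPM in the same order of groups, and their part in the COUP-TF levels was not tested. Nr2f6 averaged 1.74 to 2.54 CPM and shares 1622 exon bases with Ocel1. Nr6a1, the germ cell nuclear factor gene, averaged 1.20 to 4.25 CPM.

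Coregulators are the proteins that receptors recruit to open or close chromatin. None of 10 tested coactivator genes was called in any of these comparisons by edgeR without the block (medians of 0.08 for MDM against microglia without lipid load, -0.18 for lipid-laden against non-lipid-laden MDM, 0.11 between the lipid-laden groups and -0.19 in microglia). Of 9 corepressor genes 1 was called, lower in MDM than in microglia without lipid load (median -0.10), and none was called by edgeR with lipid load in MDM (median -0.10), with lipid load in microglia (median -0.31) or between the lipid-laden groups (median 0.10).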

How the data were processed

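Macrophages had been sorted from gliomas and sequenced as bulk RNA. Per the labels' protocols, libraries were primed with oligo-dT and made by template switching from a few nanograms of RNA with integrity numbers above 8. The authors deposited whole-number read counts per gene, not normalized, and mm10 is the build named by the submitters' processing notes. Aligner, counter and strand setting: not given in the sources used here. The 1 entry without a gene held 0 counts.

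Libraries were grouped by title, and lipid-laden MDM of number 431 were not analysed here. Total counts ran from 7798952 to 11419338. No pair of replicates agreed within sampling noise (chi-square over its degrees of freedom at least 17.3). edgeR 4.0.16 (R 4.3.3) fitted all 15 libraries with 1 coefficient per group: TMM normalization, filterByExpr (minimum count 10, minimum total 15), quasi-likelihood test and Benjamini-Hochberg adjustment over 14843 genes. Calls were made at an adjusted p under 0.05. The shares of all genes called, given with the members' calls, hold for every gene list in the same comparison. Each SE is the absolute log2 fold change divided by sqrt(F). The fit was tested on simulated data. CPM used TMM-scaled library sizes, and RPKM used merged exons of GENCODE M21, in which 31 of the 32 members had the coordinates of the deposited table. Groups at 0 counts were set to 3 counts over the group, and ratios with 1 to 3 counts carry a 95% exact interval. These cover counting error only, since no molecular identifiers were used. The promoter table from RefSeq (GRCm38.p6) held 30 of the 32 members.

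Alternatives were RLE scaling, DESeq2 1.42.0, limma-voom (limma 3.58.1), no low-count filter, a replicate block and the compared groups alone. Others were each library of the compared groups left out, no lipid-laden library numbered 221, and numbers present in all groups. Same-numbered libraries were taken as paired where the correlation of their deviations from group means passed 0.1 in every pair: lipid-laden and non-lipid-laden microglia (0.124 to 0.256) and both lipid-laden groups (0.107 to 0.168). It did not for lipid-laden and non-lipid-laden MDM (0.0272 to 0.123) or the non-lipid-laden groups (0.0152 to 0.150). The members and gene lists were chosen with earlier results of these data known. All members are named, with values in every library for those called or with a group at 0, and up to 4 called genes with the smallest p per list and comparison, besides genes called with the block, Cyp24a1 and Cyp27b1, which were chosen after their values were seen. A few genes that the rule would name are not reported here.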

Additional observations from a re-analysis of the deposited data

Results flagged for a closer look

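The lipid-laden effect on Vdr differed between origins by a test of the difference itself (fitted log2 difference -11.35, edgeR adjusted p = 0.0110), falling in lipid-laden MDM against non-lipid-laden MDM while 2 of 4 lipid-laden microglial libraries had counts and no non-lipid-laden microglial library did.

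Dixon's ratio flags about 1 in 20 groups by chance when values are normally distributed. Where a gene had counts in only 1 library its ratio is 1, so that rate is no reference there. In 7 of 84 groups of 4 libraries, 1 library stood apart from the rest by this ratio. In lipid-laden microglia these were Nr2c1 in library 221, at 45.3 CPM against 14.9 CPM in the next, Nr3c2 in library 221, at 5.41 CPM against 0, and Esrra in library 431, the lowest at 1.95 CPM against 5.01 CPM. In non-lipid-laden microglia they were Nr3c2 in library 221, at 2.27 CPM, Esrra in library 224, at 11.6 CPM against 5.13 CPM, and Thrb in library 224, at 2.68 CPM against 0. In non-lipid-laden MDM it was Nr2f1 in library 221, at 0.47 CPM against 0. Of the 7, 4 were in number 221.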

How the results depend on the processing

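Of 145 pairs of a tested member and a comparison, 18 were called as reported, 29 in at least 1 setting and 116 in none; 45 of the 116 changed sign in some setting. Of the 11 calls between non-lipid-laden MDM and microglia, 7 were kept without any one library and 6 in every setting (Vdr, Nr1h3, Rara, Rxra, Nr4a2 and Nr4a3); their number ranged from 8 to 11. Members called numbered 1 with DESeq2 (Vdr, among 164 genes) and 1 with the replicate block (Nr4a1, among 119 genes) in lipid-laden against non-lipid-laden microglia, and 2 with DESeq2 for the difference of effects (of 960 genes, against 375 as reported), against 1 to 2 without one library (Rxra added without a library of number 221). In lipid-laden against non-lipid-laden MDM they numbered 6 with DESeq2, 5 with limma-voom, 5 with the replicate block (1982, 1460 and 1529 of all genes, against 1213 as reported) and 1 to 3 without one library. The block, whose numbers did not pair these MDM groups by the stated rule, added Nr4a1 and Nr4a3 (adjusted p of 0.00440 and 0.00508). In MDM against microglia without lipid load it lost Pparg (0.0586) and gave 10 calls, and it changed no other member's call beyond those in the text. Between the lipid-laden groups 1 to 4 members were called without one library. Shares of all genes are not given here for the block without lipid load or for fits without one library. Those counts therefore describe how stable the members' calls were and are not set against all genes. At 5 CPM in every library, 10 members were expressed in lipid-laden microglia and 13 in lipid-laden MDM, and by a group mean of 1 CPM the members were 26 in lipid-laden MDM, 24 in non-lipid-laden MDM, 28 in lipid-laden microglia and 24 in non-lipid-laden microglia, so the lowest count became the highest. Rxrg in lipid-laden against non-lipid-laden MDM was at 0.38 as reported but at -1.97 with limma-voom, -1.04 with the block, -6.99 without both lipid-laden libraries numbered 221, -0.019 in numbers with all 4 groups and -6.99 to 0.96 without one library; its lipid-laden MDM counts were all in library 221. Where 1 library is left out, the fit pools the spread over all groups. At these depths 1 CPM is about 10 counts, so a value below it rests on few counts.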

Other observations

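Of the other 17 genes of the mouse nuclear receptor list, 9 had 0 counts in all libraries. The other 8 had some, with at most 42 counts in a library. Nr0b2 had the most in total, 119 counts over 8 libraries. Of the 17, 1 passed the filter on low counts and was called in no comparison. Among the members' promoters the nuclear receptor half-site AGGTCA, searched on both strands in the same windows, was found in at least 1 promoter of 8 of 30 members, against 18.1% of the 27025 genes counted likewise, and its extended form AAAGGTCA, the site that NR4A monomers bind, in Rxra and Rxrg, against 1.70% of genes. The GC box was found in 19 of 30 members, against 38.2% of genes. These matches are descriptions of letters.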
